A study of Saccharomyces cerevisiae with 16 samples.

Results

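The regions described here are the ends of long genes that lie away from promoters in the genome of budding yeast. A region is the last 300 bp of a nuclear protein-coding gene of the R64 annotation that is longer than 1500 bp and whose end lies more than 500 bp from the start codon of any other protein-coding gene. Of 6002 nuclear protein-coding genes, 2240 were longer than 1500 bp and 1501 met the distance rule. The other 739 long genes, whose ends lie within 500 bp of another start codon, served as the comparison, as did the first 300 bp of the same 1501 genes. The rule used the annotation and no measured value. Gene length here is coding length, since 96.3% of the 1501 genes have a length divisible by 3, so the end of a gene is the end of its reading frame. Reading frame ends of this kind are mostly tail to tail with a neighbour: 1094 of the 1501 genes (72.9%) have a convergent downstream neighbour, 390 a tandem one and 17 none, whereas 5.41% of the 739 comparison genes are convergent.

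Acetylation of lysine 18 on histone H3 (H3K18ac) is placed mainly by Gcn5, the acetyltransferase of the SAGA coactivator complex, which is brought to promoters by activators. The mark is therefore known as a feature of promoters and of the 5′ part of active genes. Over gene bodies, RNA polymerase II carries the methyltransferase Set2, and the H3K36 methylation it leaves recruits the deacetylase complex Rpd3S, which keeps acetylation low behind the polymerase. Ends of long genes away from promoters belong to these gene bodies.

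Chromatin immunoprecipitation with sequencing (ChIP-seq) of H3K18ac was carried out with a Millipore antibody at 16 time points of the Yeast Metabolic Cycle, the oscillation of oxygen consumption that continuous cultures go through after starvation. All libraries came from the same strain, ZKY329, a CEN.PK MATa strain that carries a FLAG tag on Spt7, a SAGA subunit, linked to the natMX marker, and no library of an untagged strain was analysed here. Each time point, from t1 at 48.32 h to t16 at 51.95 h, is 1 library. The phases were taken from the study's overview of sampling times and not from the sample labels: oxidative (OX) for t3 to t5, reductive building (RB) for t6 to t11 and reductive charging (RC) for t1, t2 and t12 to t16. Time points of a phase stood in for repeats, but they are neighbours in time along one course, so the p-values can be too small.

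Every value is the mean coverage of a window divided by the mean coverage of all nuclear bases in the same library, so that 1 is the nuclear mean. That mean lay between 27.5 and 39.4 reads per base, and the median coverage of a gene-end window lay between 12.7 and 24.9 reads. Coverage did not exceed 102 reads at any base in any library. Windows near that ceiling are compressed: 668 genes had a mean of at least 51 reads over the first 300 bp and 66 over the last 300 bp. Coverage was not divided by histone H3 or by input, so nucleosome density is part of each value.

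H3K18ac was low at these gene ends and high at the starts of the same genes at every time point. The median level at the gene end lay between 0.434 at t3 and 0.688 at t10, and the median level at the gene start lay between 1.42 at t12 and 1.71 at t3. The median ratio of start to end ranged from 2.04 at t10 to 3.68 at t3. The gene ends near another start codon were higher at each time point, with medians of 0.858 to 0.983, while their starts were similar, with medians of 1.46 to 1.76. Of the 1402 genes with enough coverage at both windows, 1105 (78.8%) had a lower end than start in all 16 libraries, and 57 (4.07%) had a higher end in all 16. Among all genes of at least 600 bp the same shares were 70.5% and 5.37%.

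**Figure D1:**
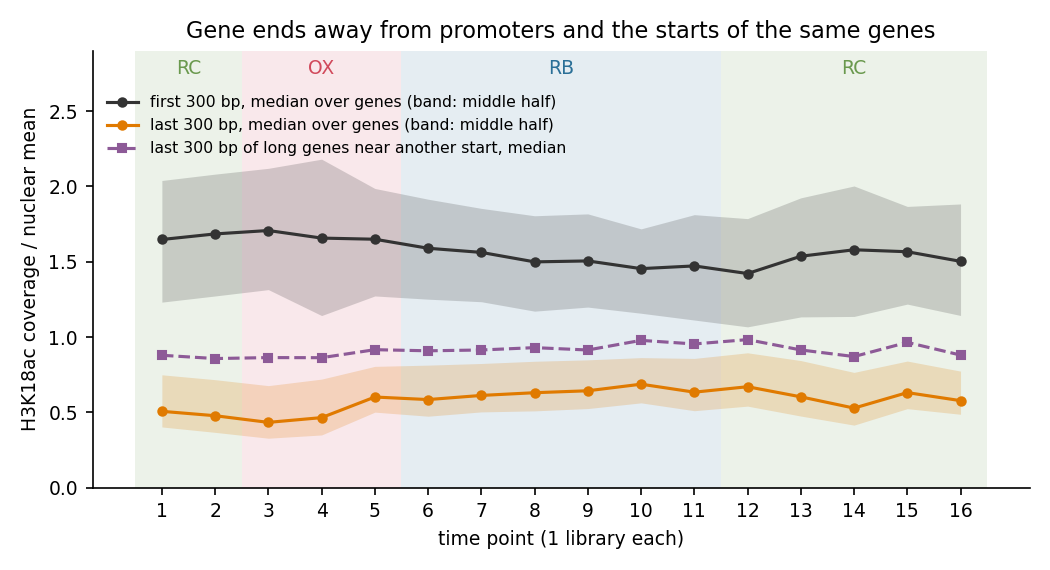
Median H3K18ac coverage relative to the nuclear mean (y axis) at the first and last 300 bp of the genes with ends away from promoters, by time point (x axis, 1 library each), with the interquartile range over genes as a band and the phases shaded. The gene-end median is lowest at t3 (0.434) and highest at t10 (0.688), and the dashed line of gene ends near another start stays above it throughout.

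The difference within each library was tested with limma on log2(level + 0.1), with Benjamini-Hochberg adjustment over 4615 genes. The end was lower than the start for 1243 of 1402 genes at an adjusted p under 0.05, against a background of 83.4% of all genes tested, and higher for 90, against a background of 9.36%. The median difference was -1.21 on the log2 scale, with an interquartile range from -1.59 to -0.73. It was -0.71 for the comparison genes and -0.90 for all genes. With the coverage ceiling corrected for, the median difference was -1.49.

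Along the gene, the mark fell from a peak after the start codon to a low plateau before the end. The mean profile of the 1402 genes with enough coverage at both windows stood at 1.91 in OX at 30 bp after the start codon. It stood at 0.46 in OX at 690 bp before the gene end. A small shoulder lay just before the gene end, with means at 50 bp before it of 0.70 in OX, 0.78 in RB and 0.77 in RC. The profile then dipped to 0.65, 0.70 and 0.71 at 50 bp after the end. At 690 bp before the end, the mean was 0.59 in RB, above its value of 0.46 in OX, whereas at 30 bp after the start codon it was 1.68 in RB, below its value of 1.91 in OX. In RB the profile was therefore flatter, lower at the peak and higher over the body, on this scale. The median log2 difference of starts between RB and the other phases moved from -0.07 to -0.01 with the ceiling corrected for. That of ends moved from 0.19 to 0.00 after quantile normalization, described below. Within OX, the median over the middle 300 bp was 0.346 at t3 and 0.380 at t4 but 0.536 at t5, against 0.530 to 0.606 in RB.

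**Figure D2:**
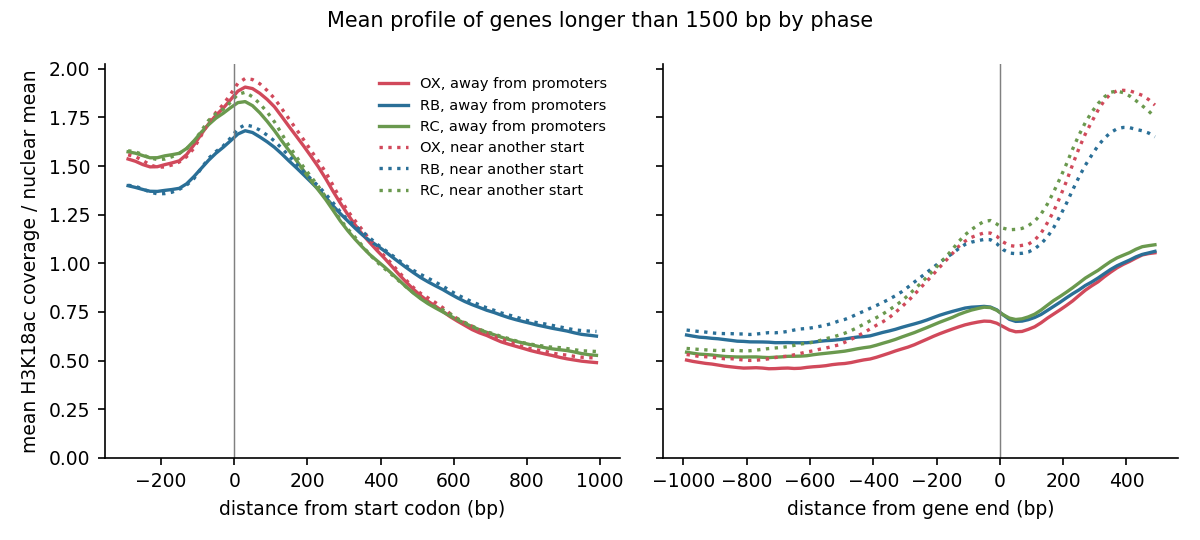
Mean H3K18ac coverage relative to the nuclear mean (y axis) in bins of 20 bp around the start codon (left) and the gene end (right) of genes longer than 1500 bp, averaged over the time points of each phase. Solid lines are the 1402 genes with ends away from promoters and enough coverage at both windows, dotted lines those with an end near another start codon. Of the 3 solid lines, OX is the highest at 30 bp after the start codon (1.91) and the lowest at 690 bp before the end (0.46).

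The gene-end level fell with the distance to the nearest other start codon and levelled off beyond about 1500 bp. Just outside the 500 bp limit, at 400 to 500 bp, the median level over 177 genes was 0.871, and just inside it, at 500 to 600 bp, it was 0.829 over 138 genes. The median was 0.644 at 700 to 1000 bp, 0.566 at 1000 to 1500 bp, 0.527 at 1500 to 2000 bp and 0.511 at 2000 to 3000 bp. The starts of the same genes showed no such slope, with medians of 1.51 to 1.61 from 500 bp upward.

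**Figure D3:**
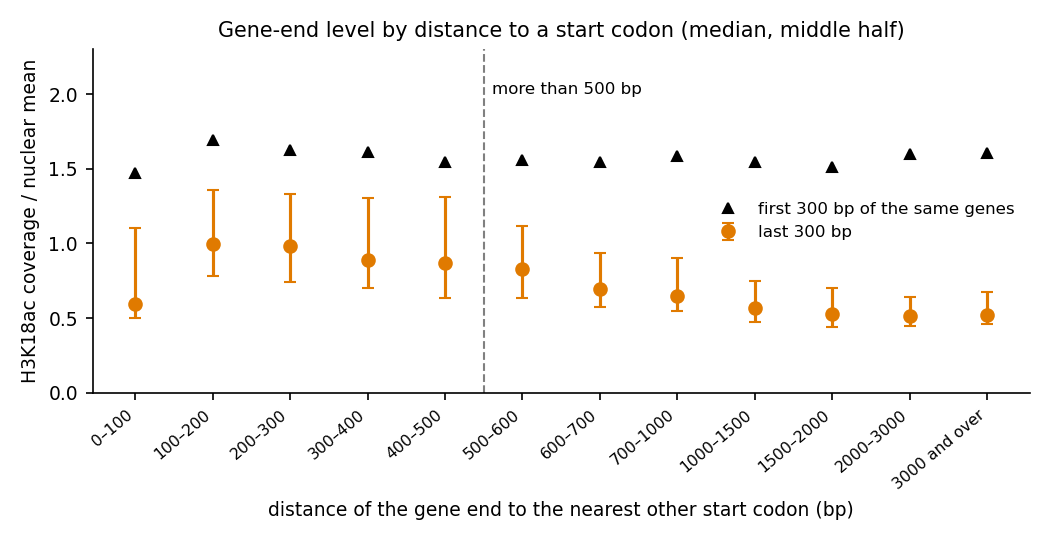
Median H3K18ac level relative to the nuclear mean (y axis) at the last 300 bp of genes longer than 1500 bp, grouped by the distance of the gene end to the nearest other start codon (x axis, bp), with bars for the interquartile range over genes and triangles for the median at the first 300 bp. Apart from the 15 genes under 100 bp (0.591), the medians run from 0.993 at 100 to 200 bp down to 0.511 at 2000 to 3000 bp, and the dashed line marks the 500 bp limit.

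The level also differed with the orientation of the downstream neighbour, which was not tested apart from distance. Ends facing a convergent neighbour had a median level of 0.545, and ends followed by a tandem gene a median of 0.793. With ends more than 1000 bp from any start codon only, the medians were 0.521 over 830 convergent and 0.723 over 110 tandem genes. Among the 57 genes whose end exceeded the start in all 16 libraries, 37 had a tandem neighbour (64.9%), against 25.2% of all 1402 genes, and their starts were low, with a median of 0.584. An end above the nuclear mean was found for 111 of 462 genes (24.0%) at 500 to 1000 bp and for 92 of 940 (9.79%) beyond 1000 bp. RNA genes were not part of the distance rule. The 56 genes with an RNA gene start within 500 bp of the end had a median of 0.708, against 0.583 for the others.

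By gene length, the median end level was 0.604 for genes of 1500 to 2000 bp, 0.566 for 2000 to 3000 bp, 0.544 for 3000 to 4000 bp and 0.592 above 4000 bp.

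Not every gene end could be measured. A mean coverage of at least 5 reads at the end was reached by 1410 of 1501 genes, and 67 of the 91 others had no coverage at the end in any library. Of the 91, 43 lie within 30000 bp of a chromosome end, where 105 of the 1501 genes lie. The 37 with a gene name include members of near-identical families. Among them were the hexose transporters HXT6 and HXT7, the maltases MAL12 and MAL32, the translation elongation factor gene EFT1 and the Y′ element helicases of the YRF1 family. Reads that match several places were discarded, and the part of this in the low coverage was not tested. The sodium pump genes ENA1, ENA2 and ENA5 (chromosome IV) had no coverage at the end in any library. Coverage of the CEN.PK strain was measured on the R64 reference, and how far the strain differs from it at the ends without coverage was not tested.

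The range of single gene ends was wide, from 0.156 to 2.73, with 0.395 at the 5th and 1.58 at the 95th percentile. The highest were ECM32 (chromosome V, 541690 to 545055), which encodes a DNA helicase, and GMC1 (chromosome IV, 1459728 to 1461554). ECM32 had a mean end level of 2.73 ± 0.455 (SD, n = 16 time points) and a mean start level of 1.27. Its end lies 556 bp from the start codon of BMH1, a 14-3-3 protein gene with a tandem orientation. GMC1 had an end level of 2.70 and lies 508 bp from PSP1. Both windows were close to the ceiling of 102 reads, with mean coverages of 86.4 and 85.5, so that their levels and their rank are capped and depend on the depth of the library.

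The largest excess of end over start was at YFL040W (chromosome VI, 51350 to 52972), 2.17 ± 0.08 on the log2 scale (standard error, limma adjusted p = 1.14e-15), and at HXT3 (chromosome IV, 1162957 to 1164660), 2.05 ± 0.09 (limma adjusted p = 9.98e-15). YFL040W had a start level of 0.299 and an end level of 1.68, although its end is 1724 bp from the start codon of ACT1, the actin gene, which converges on it. HXT3, a low-affinity glucose transporter gene, had a start level of 0.426 and an end level of 2.07. It belongs to a family of close paralogues, so part of its reads may have matched several places.

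The largest deficit was at IMD3 (chromosome XII, 1002557 to 1004128), an IMP dehydrogenase gene of guanine nucleotide synthesis, with -2.75 ± 0.08 (limma adjusted p = 3.39e-16). Its start level of 2.19 and end level of 0.236 may be affected by its paralogues in the same way. ECM30 (chromosome XII, 1007421 to 1011245) followed with -2.61 ± 0.08 (limma adjusted p = 3.84e-16), a start level of 2.84 and an end level of 0.384. The lowest measured ends were YNL018C (chromosome XIV, 599936 to 601774) with 0.156 and KRS1 (chromosome IV, 525440 to 527215), the lysyl-tRNA synthetase gene, with 0.170. The nearest other start to the end of YNL018C, that of YNL019C at 706 bp, had a level of 0 in every phase. At KRS1 the start was low too, with 0.261, and the 300 bp after its end had no coverage in any library. Its neighbours on either side, EHD3 and ENA5, were themselves below the coverage minimum at the end. How well reads can be placed around YNL018C and KRS1 was not tested, so their levels may not reflect the mark alone.

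The gene-end level moved with the cycle. The gene-end median was at its lowest from t2 to t4 (0.479, 0.434 and 0.466), stood at 0.602 at t5, and stayed between 0.586 and 0.688 over the 6 RB time points. Within RC it was 0.671 at t12, 0.604 at t13, 0.529 at t14, 0.632 at t15 and 0.579 at t16, and 0.508 at t1. OX was therefore not uniform: t3 and t4 were low and t5 was as high as the RB libraries. The level differed between the phases for 750 of 1410 genes (53.2%, moderated F test in limma, adjusted p under 0.05). The share was 58.2% among the comparison genes and 58.4% among all genes tested, so it was not raised at these ends.

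In OX, against the mean of RB and RC, the gene end was lower for 391 of 1410 genes (27.7%, background 20.6%) and higher for 59 (4.18%, background 11.2%). The median contrast was -0.23 on the log2 scale, against -0.08 for the comparison genes and -0.14 for all genes. In RB the gene end was higher for 451 (32.0%, background 28.1%) and lower for 66 (4.68%, background 7.64%), with a median contrast of 0.19. In RC it was higher for 178 (12.6%, background 14.1%) and lower for 131 (9.29%, background 19.1%), with a median contrast of 0.02. Among the comparison genes, 131 of 729 ends were lower and 109 higher in OX, and 121 were higher and 101 lower in RB. The difference between both sets of genes was not tested.

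These counts rest on few libraries and on the scaling. Without t4 the count lower in OX was 22, without t3 it was 183 and without t5 it was 754, and the count higher in RB was 239 without t3, 243 without t4, 247 without t10 and 715 without t5. After quantile normalization, which gives every library the same distribution of window values, 123 were lower and 86 higher in OX (41.1% higher, against 13.1% before it), and 128 were higher and 134 lower in RB (48.9% higher, against 87.2%). It brought the median contrast in OX to -0.05 and in RB to 0.00. The median coverage of nuclear bases moved the same way, from 0.683 of the mean at t3 to 0.890 at t10. Depth moved with it too: the 6 libraries under 30 reads per base had gene-end medians of 0.434 to 0.604, the 10 others of 0.508 to 0.688. With depth as a covariate, 357 ends were lower in OX and 255 higher in RB. The part of either in the result was not tested further.

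The starts of the same genes were called at shares near those of all genes in each phase. In OX, 432 of 1406 starts were higher (30.7%, background 33.3%) and 220 lower (15.6%, background 15%), and without t4 the counts were 241 and 57. In RB, 109 were higher (7.75%, background 6.75%) and 328 lower (23.3%, background 24.4%). In RC, 310 were higher (22.0%, background 21.8%) and 361 lower (25.7%, background 26.9%). After quantile normalization, 310 were higher and 345 lower in OX, and 210 were higher and 230 lower in RB. With the ceiling corrected for, 207 were higher and 224 lower in RB. Over the cycle, the median range of a gene's level on the log2 scale was 0.81 at the end and 0.61 at the start, but the 95th percentile was 1.22 at the end and 1.88 at the start.

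The end-minus-start difference tests whether both windows of a gene moved alike within the libraries. In OX it was lower for 509 of 1402 genes (36.3%, background 29.5%) and higher for 68 (4.85%, background 7.91%). In RB it was higher for 474 (33.8%, background 32.7%) and lower for 52 (3.71%, background 4.96%). In RC it was higher for 270 (19.3%, background 17.2%) and lower for 185 (13.2%, background 17.5%). The median contrast was -0.28 in OX and 0.25 in RB, against -0.18 and 0.21 over all genes, and the shares in RB and RC were close to the background. After quantile normalization 257 were lower and 184 higher in OX, and 146 were higher and 114 lower in RB. Without t4, 154 were lower in OX, and with depth as a covariate 261 were higher in RB.

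Over the 16 time points, which share libraries and depth, the Pearson correlation between the end and the start of the same gene had a median of -0.13 and an interquartile range from -0.46 to 0.26, and it was below 0 for 821 of 1402 genes (58.6%). With each value taken relative to the median of all genes at that time point, the median correlation was 0.18 over 1387 genes. The sign therefore depends on shifts shared by all genes. A gene whose start rose in OX did not as a rule have an end that rose. Of 430 genes with a higher start in OX and a tested end, 23 had a higher end (5.35%), 104 a lower one (24.2%), and their median end contrast was -0.22. Of 220 with a lower start in OX, 11 had a higher and 77 a lower end, with a median end contrast of -0.26. Ends of both sets thus shifted down by about as much as those of all 1410 genes.

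The gene lists show this start and end split by function. Genes for ribosome assembly, the factors that process and export pre-ribosomes, had the sharpest one. At the start, all 30 with a measured end were higher in OX (background 33.3%), with a median contrast of 1.12. At the end none was higher in OX (background 11.2%) and 11 were lower (background 20.6%, and 27.7% of all 1410 ends). The median at the end was -0.28, close to the -0.23 over all 1410 ends. The end-minus-start contrast was lower in OX for all 30 (background 29.5%), with a median of -1.39. All 30 starts were higher in OX in each of the 27 alternatives run on the lists, and the 30 contrasts were lower in each except a coverage minimum of 20, with 17, whereas the 11 lower ends became 1 without t4 and 3 after quantile normalization.

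The same list had gene ends that were higher in RC, 11 of 30 with 1 lower, against 12.6% of all 1410 ends. The background was 14.1% higher and 19.1% lower. The count was 8 to 18 over the alternatives. Of the 11, 7 end more than 1000 bp from any other start codon. NOP14 (chromosome IV, 188154 to 190586), a nucleolar protein gene of small-subunit assembly, had RC end levels of 1.13, 0.92, 1.01, 1.15, 1.20, 1.27 and 1.06 and a highest level elsewhere of 0.85, at t11. Its RC contrast was 0.79 ± 0.10 (limma adjusted p = 1.98e-05). At its start the order was reversed, with an OX mean of 1.69 ± 0.39 (SD, n = 3) against 0.692 ± 0.13 in RC (n = 7). MAK5 (chromosome II, 528317 to 530638), a helicase gene of large-subunit assembly, had end means of 0.632 ± 0.039 in OX, 0.654 ± 0.11 in RB and 0.990 ± 0.13 in RC, with an RC contrast of 0.55 ± 0.09 (limma adjusted p = 7.27e-05). Its start stood at 2.40 ± 0.53 in OX and 1.05 ± 0.22 in RC. The nearest other start codons are 2770 bp from the end of NOP14 and 1544 bp from that of MAK5. NOP4, with an RC contrast of 0.49 (limma adjusted p = 0.000103), and RIX1, with 0.43 (limma adjusted p = 0.00077), were named after their values were seen.

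**Figure D4:**
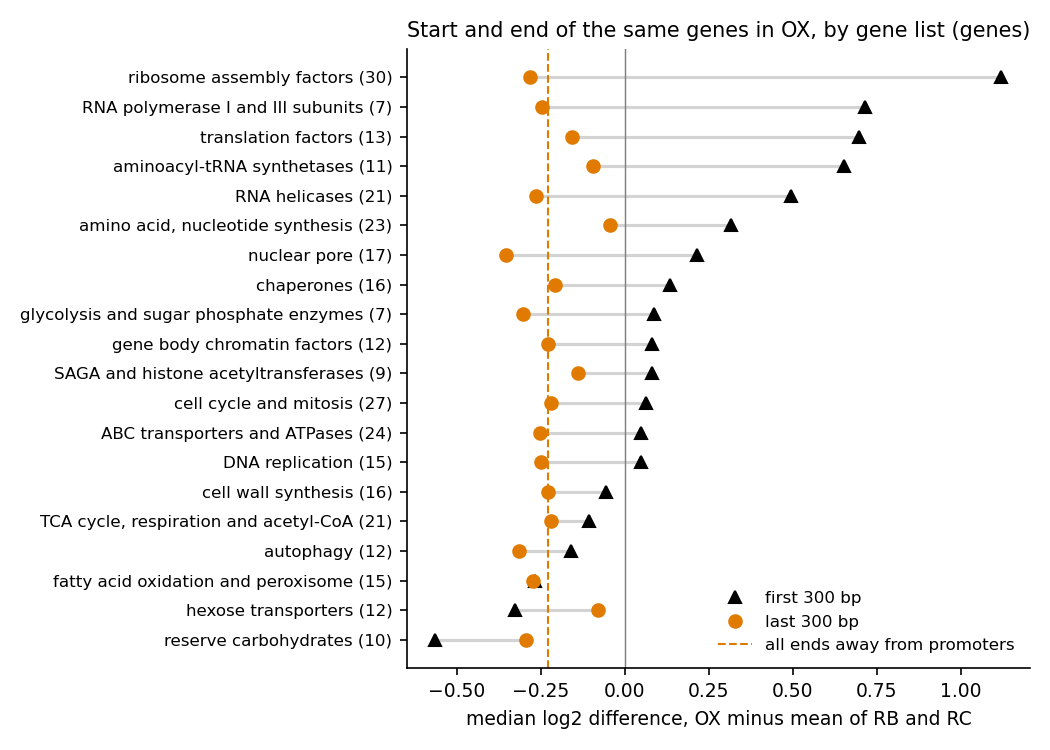
Median log2 difference between OX and the mean of RB and RC (x axis) at the first 300 bp (triangles) and the last 300 bp (circles) of the same genes, for 20 gene lists (y axis, number of genes with a measured end in brackets). The dashed line marks the median of all gene ends away from promoters (-0.23). The circles lie between -0.35 and -0.04 while the triangles run from -0.56 for reserve carbohydrates to 1.12 for ribosome assembly.

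The counts of the other growth lists can be read against 33.3% of starts higher in OX, 20.6% of ends lower in OX and 28.1% of ends higher in RB over all genes tested. For 21 RNA helicases, 17 starts were higher and 1 lower in OX with no end higher and 6 lower, and the end-minus-start contrast was lower for 16. All 7 RNA polymerase I and III subunits and factors had a higher start in OX, none a higher end and 2 a lower one. Of 11 aminoacyl-tRNA synthetases, 10 starts were higher in OX and 1 was lower, and no end was higher and 1 lower. Of 13 translation factors, 12 starts were higher, with 1 end higher and 1 lower. Of 23 genes for amino acid and nucleotide synthesis, 12 starts were higher and none lower, and 2 ends were higher and none lower. Of 17 nuclear pore genes, 11 starts were higher in OX, 8 ends were lower in OX and 10 ends were higher in RB.

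Several lists with starts that were low in OX also had ends that were low there, in counts that rest on t4. Low ends were not particular to them. In lists with higher starts, the median end contrast was -0.35 for nuclear pore and -0.28 for ribosome assembly. Over all genes tested, 15% of starts and 20.6% of ends (27.7% of the 1410 ends) were lower in OX, and 7.91% of end-minus-start differences were higher. In RC 21.8% of starts were higher, and in RB 28.1% of ends were higher. Of 10 reserve carbohydrate genes, which make and break down glycogen and trehalose, 7 starts were lower in OX (median -0.56) and 5 ends were lower (median -0.30), none being higher. Here the start moved more, and the end-minus-start contrast was higher in OX for 6 of 10. Of 15 genes for fatty acid oxidation and the peroxisome, 12 starts were higher in RC and 5 lower in OX, and 7 ends were lower in OX and 7 higher in RB. Of 12 autophagy genes, 5 starts and 6 ends were lower in OX and 5 ends were higher in RB. Of 12 hexose transporter genes, 6 starts were lower and 2 higher in OX (median -0.33), and 2 ends were lower and 2 higher (median -0.08). Without t4, no list had more than 1 end lower in OX. The counts of ends higher in RB rest on the scaling as well, as they do over all 1410 ends.

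For cell cycle and mitosis, 15 of 27 ends were higher in RB and 2 lower (background 28.1% higher). At the start 4 were higher and 2 lower (background 6.75% higher and 24.4% lower). After quantile normalization, 3 ends were higher and 3 lower in RB. The 21 genes for the TCA cycle, respiration and acetyl-CoA had 10 ends higher and 1 lower in RB, before quantile normalization. In OX, 10 of their starts were lower (background 15%) and 2 higher. For the other lists, the counts of ends lower and higher in OX were 5 and 2 of 15 for DNA replication, 3 and 0 of 16 for chaperones, 9 and 0 of 24 for ABC transporters and ATPases, 5 and 2 of 16 for cell wall synthesis, 2 and 0 of 7 for glycolysis, 2 and 1 of 9 for SAGA and histone acetyltransferases and 1 and 1 of 12 for gene body chromatin factors. The background was 20.6% lower and 11.2% higher. Lower ends of the chaperone and the SAGA and histone acetyltransferase lists were near that share. Coverage was enough for 12 of 19 hexose transporter genes, 24 of 28 ABC transporter and ATPase genes and 16 of 19 cell wall genes, so these lists lack members.

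A few gene ends rose in OX against the common trend. KIP3, CHD1 and PRT1 have a tandem neighbour, and PEX30, whose end rose in OX by 0.39 ± 0.12 (limma adjusted p = 0.0182), a convergent one. Without t4 the contrast of PEX30 was 0.30, without t5 it was 0.34, and neither passed the test. Over all 1410 genes, 22 ends (1.56%, against 3.67% of all genes) had each OX value above every other time point. KIP3 (chromosome VII, 84885 to 87302), a kinesin motor gene of the mitotic spindle, had end levels of 1.63, 2.88 and 1.85 at t3, t4 and t5, and 0.54 to 1.01 at the 13 others. The OX contrast was 1.32 ± 0.15 (limma adjusted p = 7.24e-06), while its start stood at 0.996 ± 0.10 in OX and 1.09 ± 0.10 in RB. CHD1 (chromosome V, 505392 to 509798), a chromatin remodeller gene, had end levels of 1.24, 2.31 and 1.26 in OX and at most 0.88 elsewhere, with a contrast of 0.99 ± 0.14 (limma adjusted p = 8.07e-05). The next gene, PAB1, the poly(A)-binding protein gene, starts 575 bp away and had a start level of 2.77 ± 0.48 in OX and 1.73 ± 0.25 in RB. PRT1 (chromosome XV, 1015361 to 1017652), a subunit gene of translation initiation factor eIF3, stood at 1.80 at t4 and at 0.37 to 0.66 in the other libraries. Its OX contrast was 0.87 ± 0.19 (limma adjusted p = 0.00245), and without t4 it was 0.40 and no longer passed the test. The start of PDE2 lies 540 bp from its end.

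The sharpest fall in OX among genes without overlap was at ADP1 (chromosome III, 133724 to 136873), an ABC transporter gene, with 0.43, 0.26 and 0.41 in OX. It stood at 0.43 to 0.69 from t6 to t10, then at 1.81 at t11, 1.37 at t12 and 1.51 at t13. The OX contrast was -0.999 ± 0.27 (limma adjusted p = 0.00982), and without t4 it was -0.82 and no longer passed the test. ADY2, an acetate transporter gene, starts 600 bp away, and its start level was 0.460 ± 0.15 in OX, 0.771 ± 0.30 in RB and 1.19 ± 0.27 in RC. CHS5 (chromosome XII, 787664 to 789679), a gene of chitin synthase export, had end levels of 0.72, 0.44 and 0.71 in OX and rose from 1.23 at t10 to 2.12 at t11, with an OX contrast of -0.98 ± 0.19 (limma adjusted p = 0.00122).

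In RB, TOP1 (chromosome XV, 313078 to 315387), the DNA topoisomerase I gene, had end levels of 1.38, 1.46, 1.42, 1.37, 1.24 and 0.98 from t6 to t11, and 0.46 to 0.81 at the 10 others. The contrast was 0.96 ± 0.10 (limma adjusted p = 4.12e-06), and the start did not pass the test in RB, with a contrast of -0.13 ± 0.09 (limma adjusted p = 0.251). CSI2, 711 bp away, had start levels of 1.72 ± 0.37 in RB and 0.874 ± 0.18 in OX. STH1 (chromosome IX, 117992 to 122071), the ATPase gene of the RSC remodeller, had RB end levels of 1.79 to 2.15 and at most 1.62 elsewhere, with a contrast of 0.83 ± 0.09 (limma adjusted p = 4.12e-06). KGD1, a TCA cycle gene 618 bp away, had start levels of 2.37 ± 0.18 in RB and 1.79 ± 0.29 in OX. BAP2 (chromosome II, 373861 to 375690), an amino acid permease gene, fell in RB, with levels of 1.73 to 2.12 against 2.18 to 3.45 elsewhere and a contrast of -0.49 ± 0.07 (limma adjusted p = 0.000173). Its mean end coverage of 78.9 reads is also near the ceiling. NIC96 (chromosome VI, 150016 to 152535), a nuclear pore gene, had end means of 0.502 ± 0.057 in OX and 0.902 ± 0.20 in RB, with an RB contrast of 0.60 ± 0.12 (limma adjusted p = 0.00159). ACS1 (chromosome I, 42881 to 45022), an acetyl-CoA synthetase gene, had 0.547 ± 0.026 in OX and 1.12 ± 0.18 in RB, with an OX contrast of -0.71 ± 0.11 (limma adjusted p = 0.00016).

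In RC, DPH6 (chromosome XII, 427329 to 429386), a gene of diphthamide synthesis, had end levels of 1.97 to 2.25 against 0.97 to 1.66 elsewhere, although the nearest other start codon is 2630 bp away. Its contrast was 0.74 ± 0.09 (limma adjusted p = 1.98e-05), and its start did not pass the test in RC, with -0.09 ± 0.06 (limma adjusted p = 0.228). STI1 (chromosome XV, 381053 to 382822), an Hsp90 cochaperone gene, rose at the end in RC by 0.65 ± 0.10 (limma adjusted p = 3.98e-05), and at the start by 0.29 ± 0.08 (limma adjusted p = 0.0102). PDC6 (chromosome VII, 651290 to 652981), a pyruvate decarboxylase gene with close paralogues, rose at the end in RC by 0.64 ± 0.10 (limma adjusted p = 5.03e-05), 673 bp from the start of PIL1. LCD1 (chromosome IV, 1447830 to 1450073), a DNA damage checkpoint gene, was the reverse, with RC end levels of 0.32 to 0.43 against 0.46 to 0.67 elsewhere and a contrast of -0.50 ± 0.09 (limma adjusted p = 0.000177). The ribosomal protein gene RPL37B converges on it, and RPL38 converges on PEX30 (chromosome XII, 779215 to 780786), a peroxisome gene whose end also fell in RC, by 0.59 on the log2 scale (limma adjusted p = 8.53e-05). MET10 (chromosome VI, 213312 to 216419), a sulfite reductase gene, fell at the end in RC by 0.53 on the log2 scale (limma adjusted p = 0.000635).

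**Figure D5:**
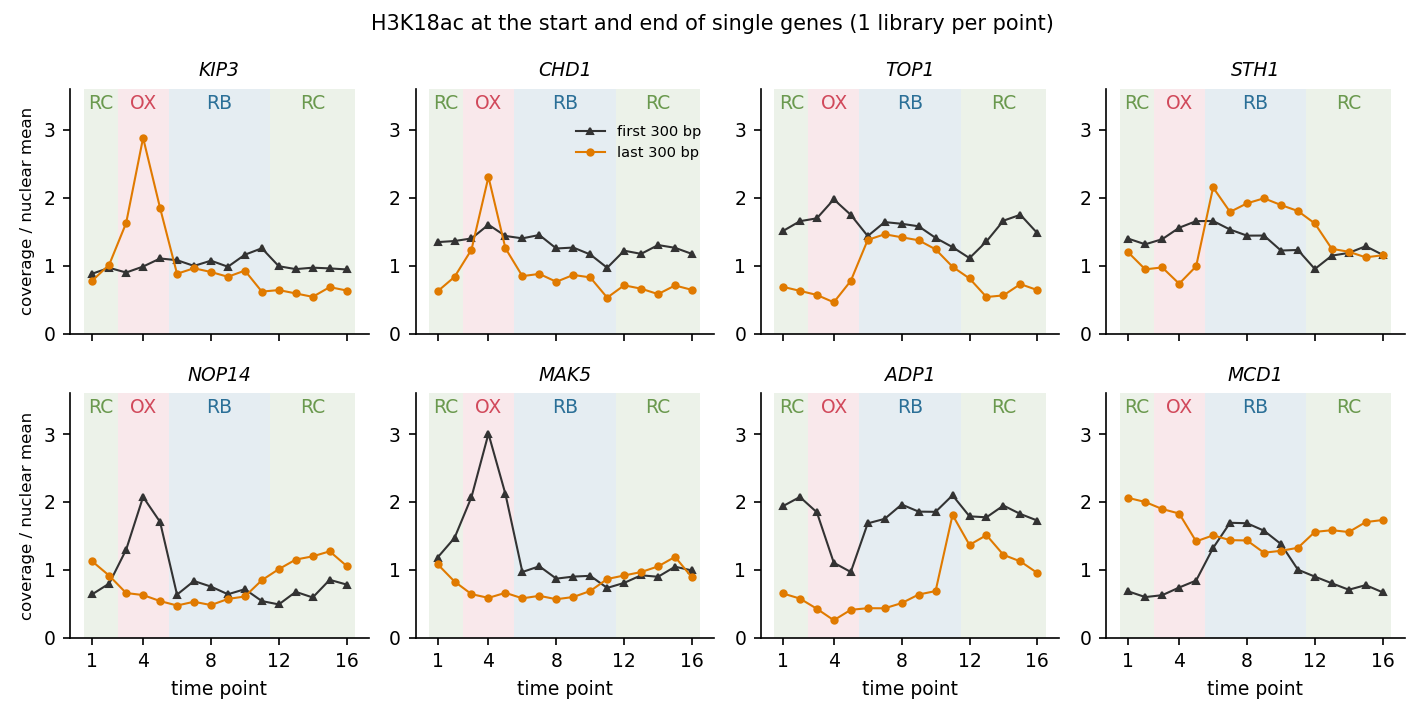
H3K18ac coverage relative to the nuclear mean (y axis) at the first 300 bp (triangles) and last 300 bp (circles) of 8 genes by time point (x axis, 1 library per point), with phases shaded. The end of KIP3 peaks at t4 (2.88) over a flat start, the ends of TOP1 and STH1 are high in RB, and the ends of NOP14 and MAK5 are high in RC while their starts peak in OX.

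SYO1, MCD1 and GDA1 had the largest end-minus-start contrast in OX, RB and RC, respectively. SYO1 (chromosome IV, 338272 to 340134), which encodes a transport adaptor for ribosomal proteins, had a start that rose to 2.03 ± 0.59 in OX from 0.684 ± 0.11 in RB and an end that was 0.603 ± 0.12 in OX and 0.781 ± 0.098 in RB. The end-minus-start contrast in OX was -1.84 ± 0.23 (limma adjusted p = 3.05e-05). MCD1 (chromosome IV, 444683 to 446383), the cohesin subunit gene, had a start that rose in RB to 1.44 ± 0.27 from 0.737 ± 0.11 in OX, while its end fell from 1.72 ± 0.26 to 1.37 ± 0.10. The contrast in RB was -1.18 ± 0.14 (limma adjusted p = 5.47e-05). GDA1 (chromosome V, 73771 to 75327), a Golgi guanosine diphosphatase gene, had an end level of 3.16 ± 0.33 and a start level of 0.967 ± 0.18 in RC, against 1.84 ± 1.2 and 2.2 ± 0.55 in OX. The contrast in RC was 1.55 ± 0.22 (limma adjusted p = 0.000154). Its end had a mean coverage of 77.1 reads over all libraries, so its highest levels are capped by the ceiling as well. YEF1, 617 bp from that end, had start levels of 1.19 ± 0.70 in OX and 1.95 ± 0.19 in RC.

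The remaining genes named by the rule are the leading ones of their lists. ATH1 (chromosome XVI, 615379 to 619014), a trehalase gene, had end means of 0.335 ± 0.12 in OX and 0.596 ± 0.089 in RB, with an OX contrast of -0.54 ± 0.15 (limma adjusted p = 0.00931). ATG1 (chromosome VII, 160065 to 162758), the kinase gene that starts autophagy, had 0.310 ± 0.17 and 0.491 ± 0.061, with an RB contrast of 0.45 ± 0.13 (limma adjusted p = 0.0118). RRN6 (chromosome II, 199064 to 201748), an RNA polymerase I core factor gene, rose in RB by 0.37 ± 0.09 (limma adjusted p = 0.00375), and DPS1 (chromosome XII, 109902 to 111575), the aspartyl-tRNA synthetase gene, by 0.38 ± 0.11 (limma adjusted p = 0.0107). MAL11 (chromosome VII, 1073963 to 1075813), a maltose transporter gene with close paralogues, had an OX contrast of -0.50 ± 0.14 (limma adjusted p = 0.0111). Without t4 the OX contrasts of ATH1 (-0.39) and MAL11 (-0.31) no longer passed the test.

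The time course of a gene end was compared with those of its own start and of the nearest other gene's start, as a description over the 16 time points, which share libraries and depth. Each value was first taken relative to the median of all genes at that time point. For 137 genes with an end 500 to 600 bp from another start codon, the median Pearson correlation was 0.51 with that other start and 0.10 with their own. At 700 to 1000 bp it was 0.40 and 0.07 over 220 genes, and at 1500 to 2000 bp 0.16 and 0.28 over 245. Over all 1387 genes with the windows measured, it was 0.27 and 0.18, and 770 ends (55.5%) had the higher correlation with the other start. CHD1 (0.90 with PAB1), PRT1 (0.92 with PDE2), ADP1 (0.96 with ADY2), TOP1 (0.92 with CSI2) and STH1 (0.90 with KGD1) were at the high end of these values. So were PEX30 (0.91 with RPL38), GDA1 (0.89 with YEF1) and LCD1 (0.82 with RPL37B). Some ends far from the other start were nearly as high. They were STI1 (0.90 with CIN5, 1598 bp), MET10 (0.89 with SMC2, 3687 bp) and ATH1 (0.87 with YPR027C, 2244 bp). Other named ends ran against the nearest other start, with -0.28 for KIP3, -0.47 for CHS5, -0.49 for MCD1, -0.57 for NOP14, -0.63 for ECM30 and -0.66 for MAK5.

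The tagged gene itself, SPT7 (chromosome II, 401253 to 405251), is not among the 1501, since its end lies 363 bp from the start codon of SEC18. Its end level was 1.22, 1.75 and 2.01 at t3, t4 and t5 and 0.77 to 1.35 at the others, with an OX contrast of 0.62 ± 0.12 (limma adjusted p = 0.000877). The start of SPT7 had a contrast of 0.03 ± 0.09 (limma adjusted p = 0.81), and the start of SEC18 stood at 2.2 ± 0.12 in OX and 1.77 ± 0.13 in RC. The inserted tag and marker are not part of the reference, so coverage at this gene end was measured on an altered locus.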

How the data were processed

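The deposited files hold coverage, a signal in reads per base at every position of the R64 genome, 1 file per library, made by the authors with bedtools genomecov after trimming with Trimmomatic 0.32. The study's methods name Bowtie as the aligner and the submitters' processing notes name STAR, and these sources do not settle which was used for these files. Reads with several matches were discarded and duplicates removed with SAMtools, and no base exceeds 102 reads. The deposited values are uncorrected for depth and not divided by H3; both steps belong to the study's later analysis.

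Window means (300 bp) were divided by the nuclear mean of the library, taken as log2(level + 0.1), and fitted with limma 3.58.1 (R 4.3.3, trend, Benjamini-Hochberg adjustment) over 4631 gene ends and 4640 gene starts of protein-coding genes, those of 600 bp or more whose window averaged 5 reads or more. Phases were contrasted with the mean of the other 2 phases. A contrast of low windows is understated by the added 0.1. Gene coordinates came from a RefSeq gene table of R64, and strand from the W or C in the systematic name. Scripts were tested on simulated data. The genes, lists and tests were chosen with earlier results of these data known.

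Named genes were, per phase, the 2 with the largest higher and the 1 with the largest lower contrast among called ends whose phase did not overlap the other time points, the 2 highest and 2 lowest ends and end-minus-start differences, the largest end-minus-start contrast per phase, SPT7, and the leading end of each list with at least 4 members. Alternatives changed the pseudocount, the coverage minimum, the scaling, the ceiling, the windows, the distance rule, the depth term, the time points and the model. No sequence is shown, since no genome was used here.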

Additional observations from a re-analysis of the deposited data

Results flagged for a closer look

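Within RB (6 time points) and RC (7 time points), Dixon's ratio was used to look for single libraries standing apart in the summary medians and the named gene ends. Of 76 groups searched, 12 held such a time point. The rate of about 1 in 20 behind the ratio's limit assumes independent values. These time points are neighbours and the groups share libraries, so the 12 cannot be weighed against that rate. In 9 of the 12 it was t11, the last RB library. Its values at t11, with the nearest RB value, were 1.81 against 0.688 for ADP1, 2.12 against 1.23 for CHS5, 1.66 against 1.20 for DPH6, 0.848 against 0.609 for NOP14 and 1.24 against 1.00 for STI1. They were lower than the rest of RB for CHD1 (0.529 against 0.762), KIP3 (0.617 against 0.836) and PEX30 (0.716 against 1.12). The share of the 1402 genes with an end above the start was 13.1% at t11, against at most 9.49% in the other RB libraries and 14.4% at t12, the first RC library that follows. In RC, KRS1 stood at 0.210 at t12 against 0.160, SYO1 at 0.632 at t2 against 0.832, and YNL018C at 0.190 at t15 against 0.148.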

How the results depend on the processing

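The median end-minus-start difference was -0.65 with a pseudocount of 1, -0.78 with a coverage minimum of 20 and -1.49 with the ceiling correction. A coverage minimum of 20 left 448 ends lower and 58 higher than starts, 391 differing between phases, 165 lower in OX and 143 higher in RB, and 207 differences lower in OX, 158 higher in RB and 107 lower in RC, since fewer genes were tested. Quantile normalization gave 123 ends lower in OX, 128 higher and 134 lower in RB and 306 higher in RC, 345 starts lower in OX and 210 higher in RB, and 184 differences higher and 257 lower in OX and 146 higher and 114 lower in RB, and the cause was not tested. The ceiling correction gave 719 ends and 207 starts higher in RB and 107 differences higher in OX, and it turned the end-minus-start contrast of STI1 in RC to -0.0456. Windows of 500 bp gave 172 starts higher in RB. With the 1019 ends more than 1000 bp from a start codon, which are fewer genes, 47 ends were higher than starts, 465 differed between phases, 21 were higher in OX, 35 lower in RB, and 97 higher and 55 lower in RC. For them 271 starts were higher in OX, 71 higher in RB and 219 lower in RC, and 36 differences were higher in OX, 27 lower in RB, and 165 higher and 105 lower in RC. Depth as a covariate gave 255 ends and 261 differences higher in RB, and cosine and sine terms in place of phases gave 1160 ends that varied.

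Leaving out each time point in turn gave 1234 to 1248 ends lower and 83 to 89 higher than starts, a median difference of -1.23 to -1.18, and 449 (without t4) to 1029 (without t5) ends differing between phases. For ends the ranges were 14 to 80 higher and 22 to 754 lower in OX, 239 to 715 higher and 46 to 82 lower in RB, and 136 to 222 higher and 98 to 177 lower in RC. For starts they were 241 to 461 and 57 to 273 in OX, 75 to 143 and 241 to 384 in RB, and 252 to 354 and 307 to 403 in RC. For differences they were 17 to 128 and 154 to 609 in OX, 251 to 663 and 35 to 66 in RB, and 176 to 344 and 123 to 245 in RC. Of 203 called contrasts of named genes, 131 kept their call under every alternative run on them. The end and start of a gene were paired within each library. Libraries could not be paired with each other because each time point has 1 library and no replicate number.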
